A study of Homo sapiens with 8 samples.

Results

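The mRNAs of the cytosolic translation initiation factors (eIFs) and elongation factors (eEFs) were followed in 8 RNA-seq libraries of MDA-MB-231, an established human breast cancer cell line. Genes were taken by symbol (EIF followed by 1 to 6, EEF followed by 1 or 2), and a gene had to reach 10 counts in at least 2 libraries. Of 66 matching symbols, 54 were members, out of 23393 genes in the table and 15262 tested. EIF4A1, a form of the helicase eIF4A, was not among the 66 symbols, so it was not measured. EIF2S1 and the eIF2 kinases EIF2AK1 to EIF2AK4 were left out by name (5 genes), as were the pseudogenes EEF1DP3 and EIF3IP1, and 5 genes had too few counts. EIF1AY had no count, EIF3C, EIF3CL and EIF4E1B had at most 2 counts in any library, and EIF4EBP3 had 2 to 6. The members nearest to the minimum were EEF1A2, with 5 to 232 counts, and EEF1AKMT1, with 65 to 184. EIF3C and EIF3CL are near-identical copies, so their counts of almost 0 are uncertain as a measure of expression. All 54 members passed the expression filter of the test.

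Parental cells and ρ0 cells, which the study describes as depleted of mitochondrial DNA, were each sequenced as 2 control and 2 arginine-starved libraries. The cells were grown in high-glucose DMEM with serum. The labels describe the starvation as arginine deiminase, an enzyme that breaks arginine down, at 0.3 µg/mL for 48 h, whereas the study describes arginine-free medium. The ρ0 cells were clone 27, a single clone, so an effect of mitochondrial DNA loss and an effect of the clone cannot be told apart, and genes of the mitochondrial genome were not analysed here. According to the labels they were also kept with pyruvate, uridine and ethidium bromide, which the parental cells were not. The labels do not say that replicates were separate cultures, so the p-values measure only the spread between these libraries.

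As background, translation of most mRNAs starts when eIF4E binds the cap and, with the scaffold eIF4G and the helicase eIF4A, recruits the small ribosomal subunit. That subunit carries eIF1, eIF1A, eIF3, eIF5 and eIF2 with the initiator tRNA, scans to a start codon, and is joined by the large subunit with the help of eIF5B. eIF2B recharges eIF2 with GTP, eEF1A delivers aminoacyl-tRNAs, and eEF2 moves the ribosome along. Lack of an amino acid is known to act on this machinery by phosphorylation of eIF2, which blocks eIF2B, and through mTORC1, which controls the eIF4E-binding proteins. These are changes of proteins, and the data described here are mRNA levels only.

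The libraries held 30986041 and 26672463 counts (parental control), 26123330 and 29356956 (parental arginine-starved), 28886136 and 30588999 (ρ0 control), and 31022155 and 25259503 (ρ0 arginine-starved). Values are given as CPM, the counts of a gene brought to a common library size after TMM scaling. They are shares of a library, so a change in total mRNA per cell does not show, and fewer cells of a kind and less mRNA per cell cannot be told apart.

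The 2 ρ0 control libraries stood apart from each other, and the translation factors differed between them in 1 direction. The biological coefficient of variation between replicates was 25.1% in this group, against 5.16% in parental control, 2.29% in parental arginine-starved and 1.84% in ρ0 arginine-starved cells. Of the 54 factors, 51 were higher in ρ0 control replicate 2 than in replicate 1, with a median difference of 0.32 (log2), whereas 49.6% of all tested genes were higher there, with a median of 0. EEF2KMT, EIF5, EIF5A2, EIF3D, EIF1AX, EIF2S3, EIF3B, EIF4A3 and EIF6, 9 of the 54, differed by more than 1.5-fold between these replicates, as did 19.0% of all tested genes, and in the other 3 groups only EEF1A2 did so, with 5 and 7 counts in parental control cells. What sets these libraries apart was not tested, and the counts and the main ρ0 values that rest on them are given with and without each of them. Without either of them the shared estimate of the spread is lower and more of all tested genes pass the test, so calls and p-values of those fits are not comparable with the ones from all 8 libraries, and only their values and signs are.

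**Figure D1:**
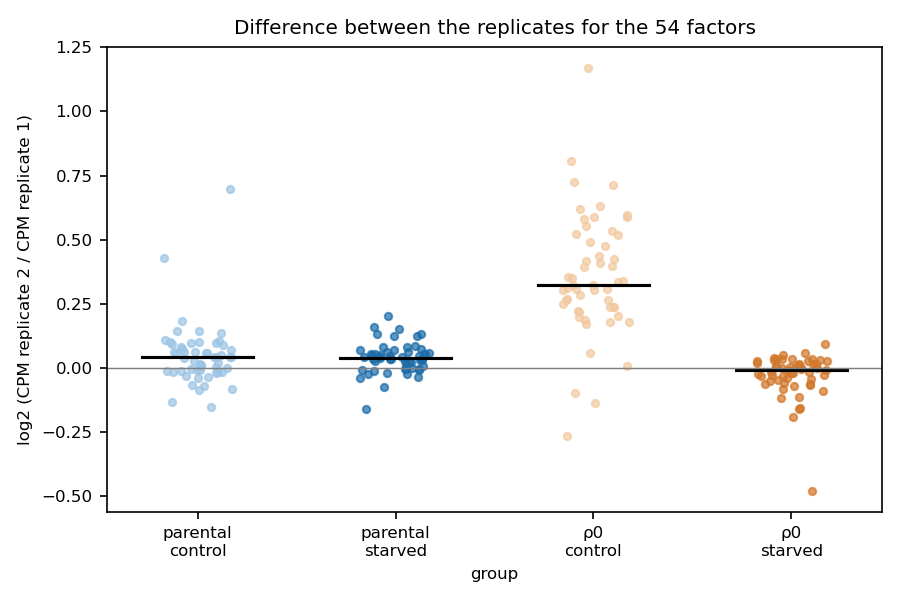
Difference between replicate 2 and replicate 1 (log2 ratio of CPM, vertical axis) for the 54 factors in each of the 4 groups (horizontal axis). Each point is 1 factor and the black line is the median. In ρ0 control cells 51 of the 54 points lie above 0 and the median is 0.32, whereas the medians of the other groups lie close to 0.

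Markers of the line were checked in all libraries. The mesenchymal markers VIM, CD44, MSN, LGALS1, AXL and CAV1 were abundant, with a summed level of 4815 and 4901 CPM in parental control, 2732 and 2709 in parental arginine-starved, 8257 and 8846 in ρ0 control and 6982 and 6812 in ρ0 arginine-starved libraries. VIM was the most abundant in every group but the starved parental cells, where AXL exceeded it. In starved parental cells VIM (-1.71), CAV1 (-1.48), MSN (-1.24) and CD44 (-0.63) fell, 4 of 6, where 35.5% of all tested genes fell. AXL was at 735 and 720 CPM in control and 840 and 833 CPM in starved parental libraries. LGALS1 was at 298 and 323 against 315 and 310 CPM. The hormone receptors ESR1 and PGR were at or near 0, with at most 6 counts in any library. The summed level of the 5 luminal markers (ESR1, PGR, CDH1, GATA3, TFF1) and ASS1, the enzyme that makes the precursor of arginine, was 4.83 to 5.71 CPM in parental and 38.7 to 52.8 CPM in ρ0 libraries, where CDH1, GATA3, TFF1 and ASS1 all had counts. GATA3 made up most of the parental sum, with 121 to 157 counts, against 250 to 579 in ρ0 libraries. CDH1 had 0 to 2 counts in parental and 104 to 457 in ρ0 libraries, and TFF1 0 to 4 and 42 to 262. As background, cells with ASS1 can make arginine from citrulline. ASS1 stood at 0.300 and 0.104 CPM (10 and 3 counts) in parental control, 0.0396 and 0.0709 CPM (1 and 2 counts) in parental arginine-starved, 6.35 and 11.5 CPM (183 and 358 counts) in ρ0 control and 23.1 and 22.3 CPM (684 and 538 counts) in ρ0 arginine-starved libraries. Every ρ0 library thus lay above every parental one, by a log2 difference of 5.40 ± 0.45 between the controls (adjusted p = 4.3e-05), and ASS1 rose in starved ρ0 cells (1.34 ± 0.29, adjusted p = 0.0086, or 0.98 and 1.85 without ρ0 control replicate 1 and 2). These markers differ between the lines along with the factors, and their part in the results, that of ASS1 included, was not tested.

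Per length, the most abundant of the 54 measured factors over all 8 libraries were EIF6 at 548 RPKM (CPM divided by the transcript length in kilobases), EIF1 at 428 and EEF2 at 396. The least abundant were EIF4E3 at 1.02 RPKM and EEF1A2, the eEF1A form of muscle and nerve, at 1.58. EEF1A1, usually the most abundant elongation factor, stood at only 164 RPKM. It has 39 annotated pseudogenes, so reads of this gene may have been lost or shared and its level is uncertain. EIF5A and the near-identical copy EIF5AL1 share the same doubt.

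In starved parental cells far more translation factor mRNAs rose than fell. The summed level of the 54 factors was 12003 and 12240 CPM in the control libraries and 17542 and 17981 CPM in the starved libraries, or 1.29% and 1.32% against 1.70% and 1.73% of all counts. By edgeR's quasi-likelihood test at a Benjamini-Hochberg adjusted p-value under 0.05, 31 factors rose and 6 fell, where 30.4% of all tested genes rose and 35.5% fell. The median log2 fold change was 0.48 for the factors and -0.07 for all tested genes. Past 2-fold, 11 of the 54 factors rose and 2 fell, where 12.7% of all tested genes rose and 22.1% fell that far. With libraries scaled by total counts alone, 25 rose and 10 fell, while 24.7% of all tested genes rose and 41.0% fell, and the median of all tested genes moved from -0.07 to -0.23 (-0.19 with upper quartile scaling). Of the 37 calls, 27 held with any 1 library left out, and the 10 others, which include EEF2, EEF2K, EIF3A and EEF1A2, reached adjusted p-values of 0.0541 to 0.162 without 1 of the libraries.

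**Figure D2:**
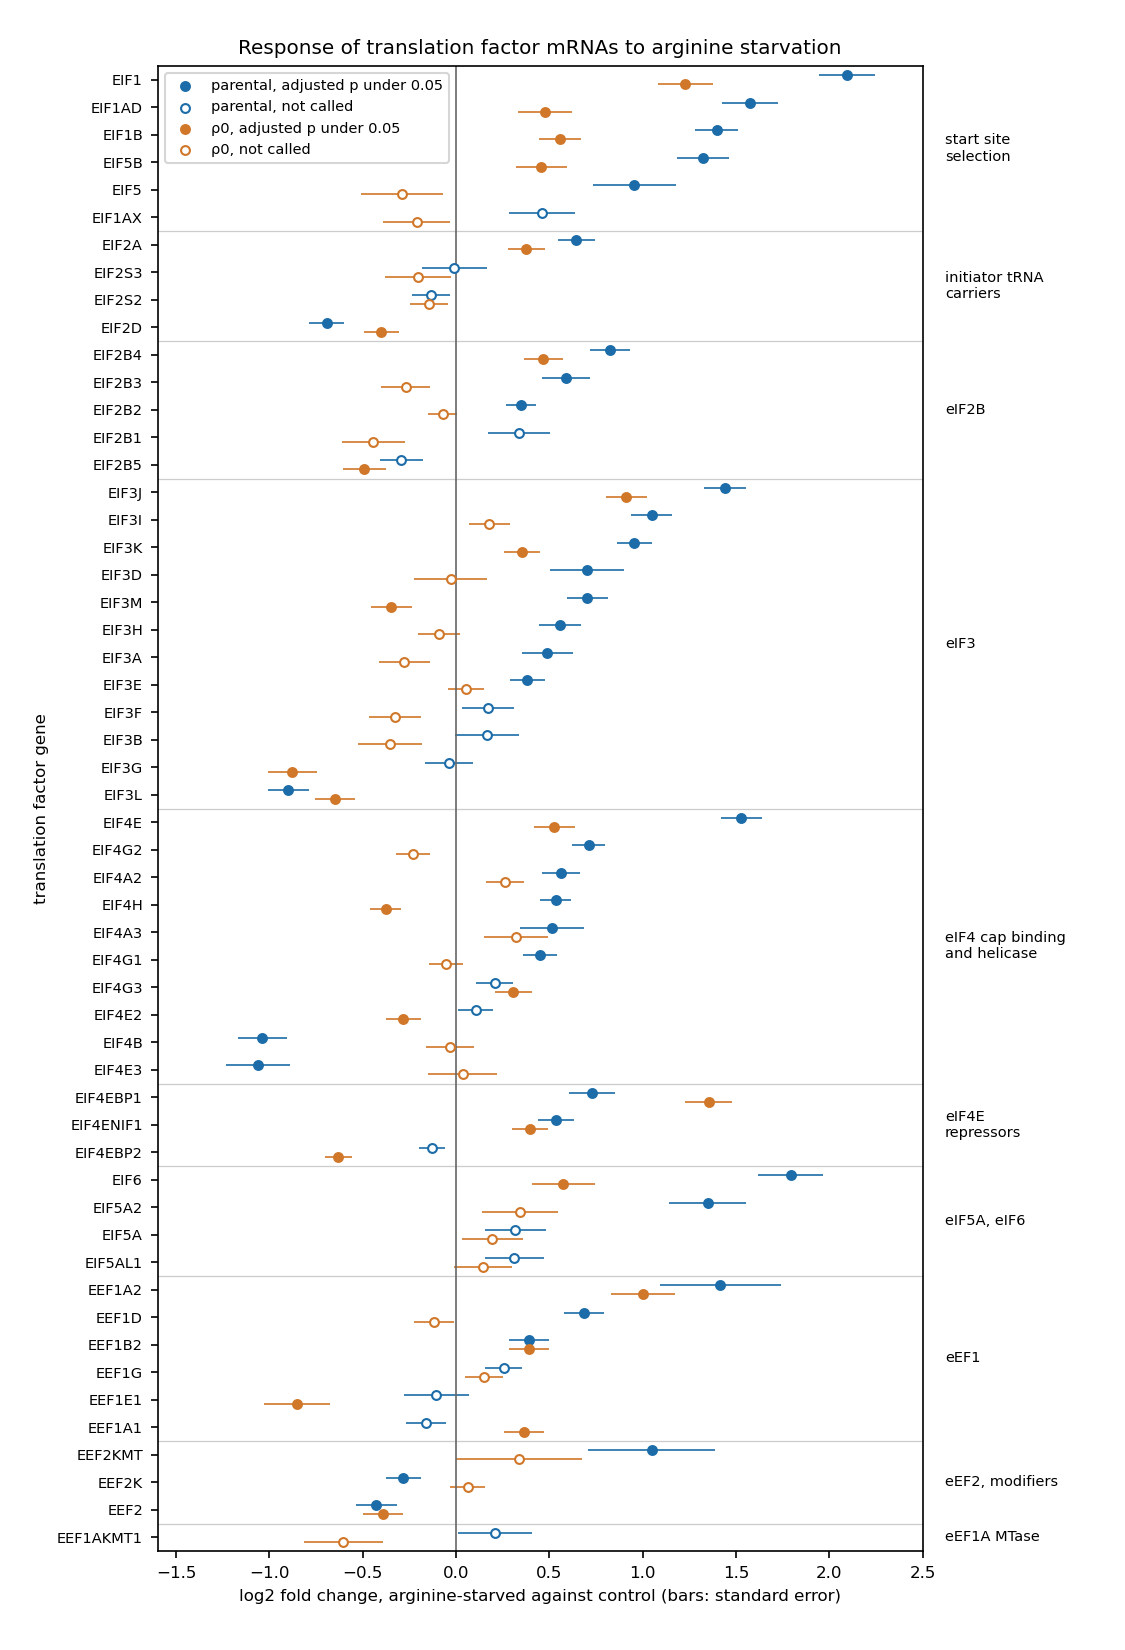
Log2 fold change of arginine-starved against control cells (horizontal axis) for each of the 54 factors (vertical axis, grouped by role and sorted by the parental value), in parental (blue) and ρ0 cells (orange). Filled points have an adjusted p-value under 0.05, open points do not, and bars are standard errors. Most blue points lie to the right of 0, led by EIF1 at 2.10, whereas the orange points lie on both sides.

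Of the 6 members grouped as start site factors, 5 rose in parental cells and none fell (30.4% and 35.5% of all tested genes did). The group also holds EIF1AD and the subunit-joining EIF5B, so it is wider than start site selection. EIF1, which keeps the scanning ribosome from starting at poor sites, stood at 246 and 263 CPM in control and 1075 and 1099 CPM in starved parental cells, a log2 fold change of 2.10 ± 0.15 (SE, adjusted p = 2.6e-05) and the largest rise of all members. In ρ0 cells it stood at 333 and 464 CPM in control and 934 and 934 CPM in starved libraries. Starved and control libraries did not overlap in either line. With 2 libraries on each side this was common, holding for 13610 of the 15262 tested genes in parental and 10296 in ρ0 cells. Among the 54 factors it held for 52 and 36. EIF1AD, a protein with an eIF1A-like domain, was at 45.2 and 45.0 CPM in control and 133 and 136 CPM in starved parental cells (1.57 ± 0.15, adjusted p = 7.8e-05). Its ρ0 values were 56.5 and 79.6 in control and 92.9 and 96.3 CPM after starvation, between the parental groups. The eIF1 paralog EIF1B (1.40 ± 0.11), the subunit-joining GTPase EIF5B (1.32 ± 0.14) and EIF5, which triggers GTP hydrolysis on eIF2 (0.96 ± 0.22), also rose in parental cells. EIF1AX, the X-linked eIF1A, was the exception at 0.46 ± 0.18, with an adjusted p of 0.053.

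EIF6, which keeps the large ribosomal subunit from joining too early and is needed to build it, was at 337 and 363 CPM in control and 1218 and 1209 CPM in starved parental cells, a rise of 1.79 ± 0.18 (adjusted p = 9.0e-05). In ρ0 cells it was at 379 and 569 CPM in control and 702 and 710 CPM after starvation. The parental starved libraries were thus the highest of the 8 for EIF6, with no overlap with any other group. EIF5A, the factor that carries the modified amino acid hypusine, did not pass the test (0.32 ± 0.16, adjusted p = 0.12), whereas its paralog EIF5A2 was at 55.5 and 49.9 CPM in control and 136 and 133 CPM in starved parental cells (1.35 ± 0.21, adjusted p = 0.00082).

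The enzymes that make hypusine moved in opposite directions in parental cells. DHPS, the first enzyme, fell from 99.1 and 99.2 CPM to 32.5 and 34.7 CPM (-1.56 ± 0.12, adjusted p = 3.0e-05), and DOHH, the second, rose from 23.5 and 28.7 to 71.2 and 65.3 CPM (1.39 ± 0.23, adjusted p = 0.0013). Control and starved libraries overlapped for neither gene, as for most tested genes. In ρ0 cells neither passed the test, at 0.12 ± 0.11 for DHPS and 0.25 ± 0.23 for DOHH. Without ρ0 control replicate 1 and 2 in turn, DHPS was at 0.29 and -0.015 and DOHH at -0.07 and 0.68, so neither kept its sign there. Both responses differed between the lines. The difference was 1.68 ± 0.16 for DHPS (adjusted p = 0.00054), or 1.85 and 1.51 without ρ0 control replicate 1 and 2, and -1.14 ± 0.32 for DOHH (adjusted p = 0.027), or -1.45 and -0.74.

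Of the 12 measured subunits of eIF3, the large complex that holds the other factors on the small subunit, 8 rose and only EIF3L fell in parental cells, beside the same 30.4% and 35.5% of all tested genes. EIF3J, a loosely bound subunit, rose most, from 104 and 112 CPM to 289 and 297 CPM (1.44 ± 0.11, adjusted p = 3.3e-05). It was followed by EIF3I (1.05 ± 0.11) and EIF3K (0.96 ± 0.10). EIF3L fell from 225 and 232 CPM to 120 and 125 CPM (-0.90 ± 0.11, adjusted p = 0.00026), although it sits in the complex beside EIF3K. The subunits of this complex therefore did not move together. EIF3B, EIF3F and EIF3G did not pass the test.

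Cap binding and helicase factors showed the widest spread of the role groups in parental cells, 6 of 10 rising and 2 falling beside those shares. EIF4A1, which was not measured, is not among these 10. EIF4E, the cap-binding protein, was at 26.1 and 27.2 CPM in control and 71.4 and 82.3 CPM in starved parental libraries (1.53 ± 0.11, adjusted p = 2.7e-05), and at 22.6 and 26.0 against 35.0 and 35.1 CPM in ρ0 cells. EIF4B, a cofactor of the helicase, went the other way, from 182 and 183 CPM to 87.7 and 90.0 CPM (-1.04 ± 0.13, adjusted p = 0.00031). In ρ0 cells EIF4B was at 120 and 160 CPM in control and 138 and 135 CPM after starvation, so those groups overlapped. EIF4E3, a scarce cap-binding relative, fell from 11.9 and 11.6 CPM to 5.54 and 5.71 CPM (-1.06 ± 0.17, adjusted p = 0.0011). EIF4H, which resembles EIF4B in activity, rose (0.54 ± 0.08), as did the scaffold EIF4G1 (0.45 ± 0.09), the scaffold-like EIF4G2 (0.71 ± 0.09) and the helicase EIF4A2 (0.56 ± 0.10).

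Of the 3 repressors of eIF4E, 2 rose in parental cells, and 2 rose and 1 fell in ρ0 cells, beside 30.4% rising and 35.5% falling of all tested genes in parental and 19.2% and 22.1% in ρ0 cells. EIF4EBP1, which in its unphosphorylated form holds eIF4E away from eIF4G, was at 97.9 and 104 CPM in control and 165 and 170 CPM in starved parental cells (0.73 ± 0.12, adjusted p = 0.0014). In ρ0 cells it was at 48.6 and 62.2 CPM in control and 150 and 134 CPM after starvation, the largest rise of that line at 1.35 ± 0.13 (adjusted p = 0.00031), or 1.19 and 1.56 without ρ0 control replicate 1 and 2. The ρ0 controls were thus the lowest of all libraries and the starved libraries came near the parental ones. EIF4EBP2 was at 159 and 152 against 143 and 141 CPM in parental cells, which did not pass the test, and fell from 114 and 115 CPM to 73.9 and 73.9 CPM in ρ0 cells (-0.63 ± 0.07, adjusted p = 0.00060), with -0.63 and -0.61 without these libraries in turn. EIF4ENIF1, which carries eIF4E into the nucleus and to repressed mRNAs, rose in both lines (0.53 ± 0.10 and 0.40 ± 0.10).

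**Figure D3:**
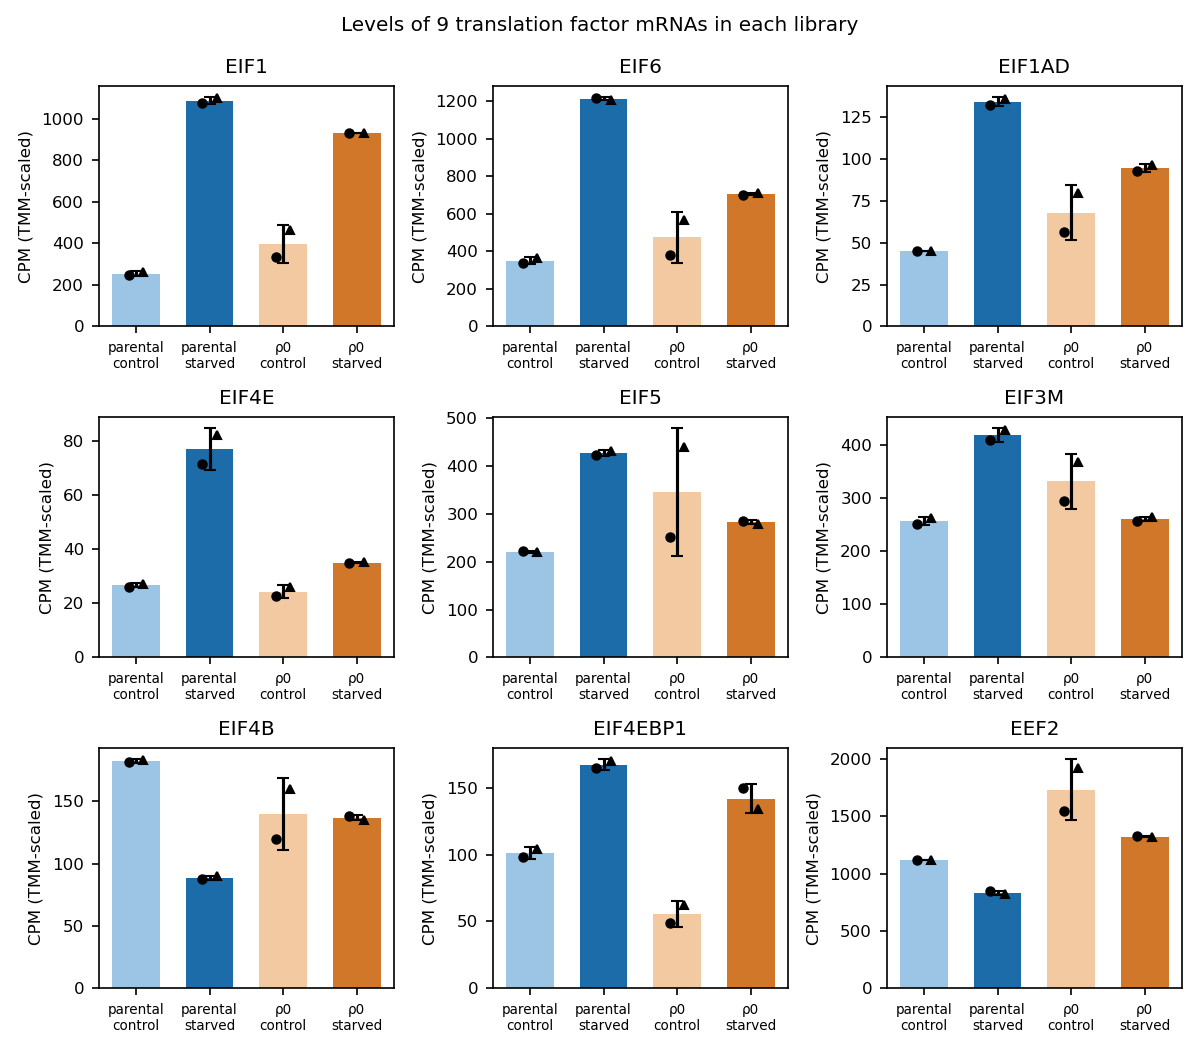
Level of 9 factors (CPM after TMM scaling, vertical axis) in the 4 groups (horizontal axis). Bars are means, error bars are the SD of 2 libraries, circles are replicate 1 and triangles replicate 2. EIF1, EIF6, EIF1AD and EIF4E are highest in starved parental cells, EIF4B is lowest there, and the ρ0 control replicates of EIF5 lie at 251 and 440 CPM, the largest ratio between replicates in these panels.

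The carriers of initiator tRNA and the recharging complex did not move together. EIF2S3, the subunit of eIF2 that binds the tRNA, was at 273 and 272 CPM in control and 265 and 277 CPM in starved parental cells (-0.01 ± 0.17, adjusted p = 0.97), and EIF2S2 did not pass the test in either line. EIF2A, which can carry the tRNA in place of eIF2, rose (0.65 ± 0.10), and EIF2D, which acts in a similar way and in recycling, fell from 54.2 and 54.3 CPM to 33.1 and 34.1 CPM (-0.69 ± 0.09, adjusted p = 0.00046). Of the 5 subunits of eIF2B, 3 rose in parental cells and none fell (30.4% and 35.5% of all tested genes did), namely EIF2B4 (0.83 ± 0.11), EIF2B3 (0.59 ± 0.13) and EIF2B2 (0.35 ± 0.08). The catalytic subunit EIF2B5 was at -0.29 ± 0.11 (adjusted p = 0.053) in parental and fell by 0.49 ± 0.11 in ρ0 cells, or by 0.66 and 0.29 without ρ0 control replicate 1 and 2.

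Of the elongation factors, 3 of 6 members of the eEF1 group rose in parental cells and none fell, where 30.4% of all tested genes rose and 35.5% fell, and EEF2 fell. EEF2, the translocation factor, went from 1122 and 1119 CPM to 845 and 822 CPM in parental cells (-0.43 ± 0.11, adjusted p = 0.0096) and from 1549 and 1920 CPM to 1326 and 1321 CPM in ρ0 cells (-0.39 ± 0.11, adjusted p = 0.024, or -0.54 and -0.21 without ρ0 control replicate 1 and 2). The difference between these responses was 0.04 ± 0.15 and did not pass the test. It was -0.11 and 0.17 without ρ0 control replicate 1 and 2, opposite in sign. EEF2K, the kinase that inhibits eEF2, fell slightly in parental cells (-0.28 ± 0.09, adjusted p = 0.030), and EEF2KMT, which methylates eEF2, rose (1.05 ± 0.34, adjusted p = 0.027). Of the eEF1 exchange factor, EEF1D (0.68 ± 0.11) and EEF1B2 (0.39 ± 0.11) rose, and EEF1G did not pass the test. EEF1A1 was at 496 and 548 CPM in control and 441 and 493 CPM in starved parental cells (-0.16 ± 0.11, adjusted p = 0.23). EEF1A2 rose from 5 and 7 counts to 14 and 14 counts, too few for a firm size (1.42 ± 0.33).

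In ρ0 cells the response had no common direction. The summed level was 11771 and 14998 CPM in the control and 13729 and 13617 CPM in the starved libraries, so the starved libraries fell between the controls. By the same test 16 factors rose and 10 fell, where 19.2% of all tested genes rose and 22.1% fell, and the median log2 fold change was 0.00 against -0.02 for all tested genes. Only EIF4EBP1, EIF1 and EEF1A2 passed 2-fold, which 12.4% of all tested genes did. With total counts alone 8 rose and 13 fell, but all tested genes shifted alike, to 15.8% rising and 25.6% falling with a median of -0.10. Without ρ0 control replicate 1, 17 factors rose and 26 fell (31.0% and 31.8% of all tested genes in that fit), and without replicate 2, 30 rose and 11 fell (30.8% and 31.6%). The medians were -0.11 and 0.19. All 26 calls kept their sign without either ρ0 control library. The other settings were the other scalings, filters and tests, the replicate block and the 4 compared libraries alone. Only 6 of the 26 calls held in every one of them in which the gene was tested. Only 9 of the 26 held with any 1 of the 8 libraries left out, namely EIF1, EIF1B, EIF3G, EIF3J, EIF3L, EIF4E, EIF4EBP1, EIF4EBP2 and EEF1A2.

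EIF1 rose in ρ0 cells by 1.23 ± 0.15 (adjusted p = 0.00076), or 1.012 and 1.499 without ρ0 control replicate 1 and 2. EIF3J rose from 73.5 and 90.8 CPM to 158 and 151 CPM (0.91 ± 0.11, adjusted p = 0.00081), or by 0.77 and 1.09 without these libraries in turn. EEF1A2 went from 4.13 and 3.86 CPM to 7.84 and 8.16 CPM (1.002 ± 0.17, adjusted p = 0.0033), or by 1.05 and 0.96. For each of these genes the starved libraries lay above both controls, where the groups did not overlap for 10296 of the 15262 tested genes. EIF3G, an RNA-binding subunit of eIF3 that was at -0.04 ± 0.13 in parental cells, fell from 130 and 173 CPM to 82.2 and 83.0 CPM (-0.88 ± 0.13, adjusted p = 0.0019), with -1.07 and -0.65 without ρ0 control replicate 1 and 2. EEF1E1, a scaffold of the tRNA synthetase complex, fell from 15.4 and 22.3 CPM to 10.7 and 10.1 CPM (-0.85 ± 0.18, adjusted p = 0.0077), with -1.09 and -0.55 on leaving them out. EIF3L fell from 174 and 218 to 125 and 124 CPM (-0.65 ± 0.11, adjusted p = 0.0032), with -0.80 and -0.47. EIF3L was thus lower after starvation in both lines. The call of EEF1E1 was lost without 1 of the ρ0 starved libraries (adjusted p up to 0.0656).

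Whether the responses differed between the lines was tested as an interaction, the ρ0 response minus the parental response. It was negative and past the threshold for 24 factors and positive for 4, where it was negative for 18.8% and positive for 21.6% of all tested genes. The median difference was -0.50 for the factors and 0.02 for all tested genes. Without ρ0 control replicate 1 it was negative for 41 and positive for 7 (31.7% and 34.2% of all tested genes in that fit), and without replicate 2 negative for 33 and positive for 8 (29.7% and 29.8%), with medians of -0.64 and -0.35. All 28 calls kept their sign without either of these libraries. With any 1 of the 8 libraries left out, 13 of the 28 held, and among the 15 others were EIF5, EIF1, EIF5A2, EIF5B, EIF4G1, EIF4E3, EIF4EBP1 and EEF1A1, with adjusted p-values of up to 0.151.

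With all 8 libraries the largest difference was that of EIF5. It was at 222 and 219 CPM in control and 423 and 432 CPM in starved parental cells, and at 251 and 440 CPM in control and 286 and 280 CPM in starved ρ0 cells, a difference of -1.25 ± 0.31 (adjusted p = 0.017). The size depends on the ρ0 control libraries, with -1.59 without replicate 1 and -0.81 without replicate 2. So does the rank, since without replicate 2 other factors differed by more, EIF6 (-0.92) and EIF4B (1.21) among them. The ρ0 response of EIF5 itself, -0.29 with all libraries (adjusted p = 0.33), turned from -0.64 without replicate 1 to 0.18 without replicate 2, so its direction was not settled. EIF6 (-1.22 ± 0.24), EIF1AD (-1.10 ± 0.21), EIF4E (-1.003 ± 0.15) and EIF1 (-0.87 ± 0.20) rose in both lines and less in ρ0 cells. EIF5A2 (-1.005 ± 0.29) rose in parental cells and did not pass the test in ρ0 cells (0.34 ± 0.20, adjusted p = 0.22). Without ρ0 control replicate 1 and 2 in turn, its difference was -1.31 and -0.62 and its ρ0 response 0.03 and 0.77. EIF3M, a subunit of eIF3, was at 252 and 262 against 410 and 428 CPM in parental cells and 295 and 369 against 258 and 264 CPM in ρ0 cells. It rose in the former and fell in the latter, with a difference of -1.05 ± 0.16 (adjusted p = 0.0025) that was -1.20 and -0.91 without the ρ0 control libraries. The fall of EIF3M in ρ0 cells was small, at -0.35 (adjusted p = 0.040), or -0.50 and -0.16 without ρ0 control replicate 1 and 2. EIF4H moved in the same way, rising by 0.54 and falling by 0.38 on the log2 scale (difference -0.91 ± 0.12, adjusted p = 0.0015). Its ρ0 value was -0.46 and -0.27 without these libraries in turn. Neither the EIF3M nor the EIF4H fall was among the ρ0 calls that held with any 1 library left out.

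In the other direction were EIF4E3 (1.10 ± 0.25, adjusted p = 0.013) and EIF4B (1.005 ± 0.18, adjusted p = 0.0053), which fell in parental cells and did not pass the test in ρ0 cells (0.04 ± 0.19 and -0.03 ± 0.13). The ρ0 response of EIF4B was -0.23 and 0.21 without ρ0 control replicate 1 and 2, opposite in sign. EIF4EBP1 rose more in ρ0 cells (0.63 ± 0.17, adjusted p = 0.025). EEF1A1 was at 520 and 589 CPM in control and 752 and 675 CPM in starved ρ0 cells, a rise of 0.36 ± 0.11 there and a difference of 0.52 ± 0.15 (adjusted p = 0.030). By role, 5 of 6 members of the start site group had a negative difference past the threshold, EIF1AD and EIF5B among them. So did 7 of 12 eIF3 subunits and 3 of 5 eIF2B subunits. No member of these groups had a positive one (18.8% of all tested genes were negative and 21.6% positive). None of the 4 carriers of initiator tRNA passed in either direction. Over the 8 libraries, the factors with the level pattern most like that of EIF5 were EIF3M (Pearson r = 0.915 of log2 CPM), EIF3E (0.889) and EIF4G2 (0.843), given as a description since the libraries share their groups.

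**Figure D4:**
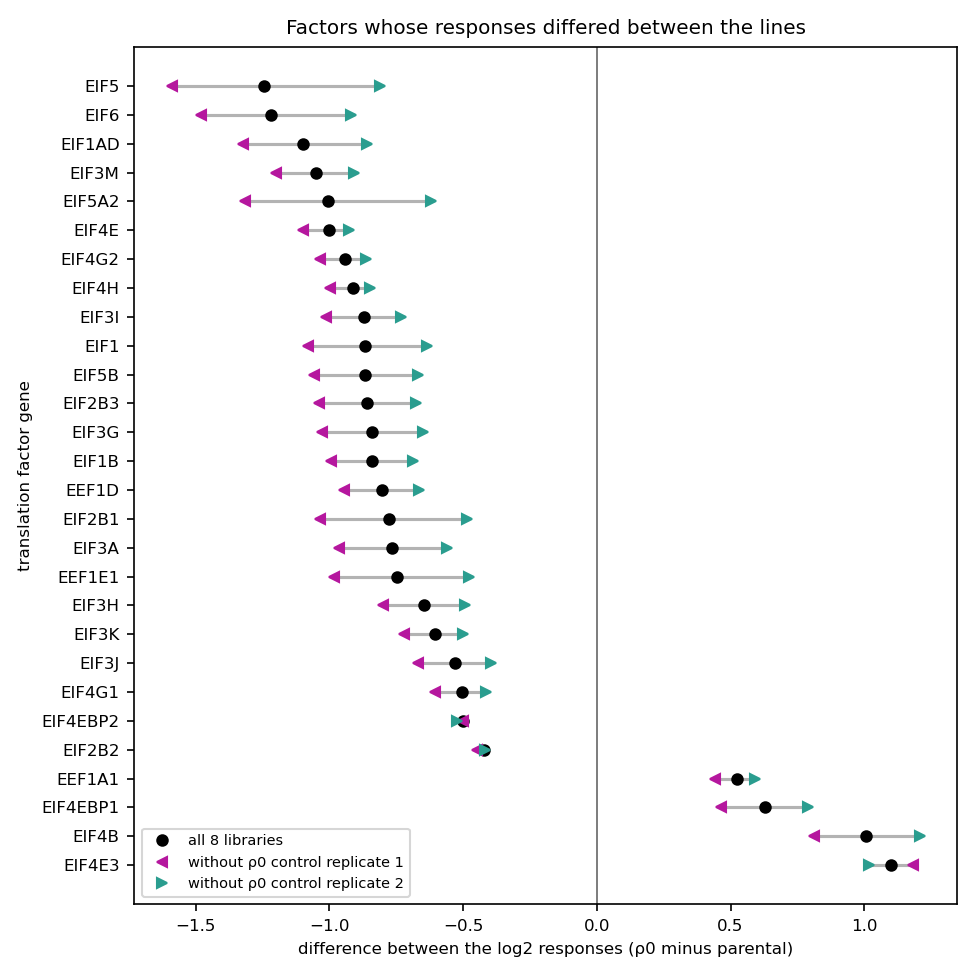
Difference between the log2 responses (ρ0 minus parental, horizontal axis) of the 28 factors with an adjusted p-value under 0.05 (vertical axis). Black circles use all 8 libraries, and triangles leave out ρ0 control replicate 1 (purple) or 2 (green). No factor crosses 0, and the spread between the triangles is widest for EIF5, from -1.59 to -0.81.

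Levels were also compared between the lines, using the same libraries as the responses. In control cells 13 factors were higher and 14 lower in ρ0 than in parental cells (30.5% and 31.8% of all tested genes were), with a median of -0.06. With total counts alone 8 were higher and 16 lower, while all tested genes shifted alike, to 26.8% higher and 35.3% lower with a median of -0.11. Without ρ0 control replicate 1, 29 were higher and 15 lower (37.7% and 39.5% of all tested genes in that fit), and without replicate 2, 14 were higher and 29 lower (39.0% and 37.3%), with medians of 0.16 and -0.23. All 27 calls kept their sign without either of these libraries. Only EEF1A2 and EIF4E3 passed 2-fold, which 30.9% of all tested genes did. EEF1A2 had 5 and 7 counts in parental and 119 and 120 counts in ρ0 control libraries, a log2 difference of 4.34 ± 0.25 (adjusted p = 9.5e-06). EIF4E3 was at 11.9 and 11.6 CPM against 3.82 and 3.47 CPM (-1.69 ± 0.18, adjusted p = 0.00014).

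The scaffolds EIF4G1, at 713 and 704 against 1106 and 1288 CPM (0.76 ± 0.09), and EIF4G2 (0.74 ± 0.09) were higher in ρ0 control cells, as were EIF5 (0.65 ± 0.22) and EEF2 (0.63 ± 0.11). EIF4EBP1 (-0.87 ± 0.12), EEF2K at 49.0 and 49.3 against 25.4 and 28.9 CPM (-0.86 ± 0.10) and EEF1D (-0.75 ± 0.11) were lower. Thus eEF2 mRNA was higher and the mRNA of its inhibitory kinase lower in the ρ0 clone. EIF5 was at 0.997 and 0.24 without ρ0 control replicate 1 and 2. The call of EIF5 was lost with 1 library left out, whereas those of the 6 other genes named here held.

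After starvation the lines differed more. Only 7 factors were higher and 32 lower in ρ0 than in parental cells (32.9% and 33.5% of all tested genes), with a median of -0.51 against -0.01 for all tested genes, and 10 passed 2-fold (35.5% of all tested genes). This comparison uses neither ρ0 control library except for the shared estimate of the spread, and 29 of the 39 calls held with any 1 library left out. The lower ones were led by EEF1D at 707 and 725 against 249 and 239 CPM (-1.55 ± 0.11, adjusted p = 1.7e-05), EIF3A, the largest eIF3 subunit, at 963 and 1001 against 374 and 383 CPM (-1.38 ± 0.14, adjusted p = 9.2e-05), EIF4E (-1.13 ± 0.11) and EIF2B3 (-1.09 ± 0.13). Of eIF3, 10 of 12 subunits were lower and none higher. The higher ones were EEF1A2 (3.92 ± 0.22), EEF2 (0.67 ± 0.11), EIF2D (0.65 ± 0.09), EIF4B (0.62 ± 0.13), EEF1A1 (0.61 ± 0.11), EEF1B2 (0.32 ± 0.11) and EIF4G1 (0.25 ± 0.09).

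Of these mRNAs, 10 are listed as carrying a terminal oligopyrimidine (TOP) tract, through which mTORC1 controls their translation. In parental cells 5 of them rose and 2, EEF2 and EIF4B, fell (30.4% and 35.5% of all tested genes did), and in ρ0 cells 3 rose and EEF2 fell (19.2% and 22.1%). The median log2 fold change of these 10 was 0.32 in parental cells, below the 0.48 of all 54 factors, and 0.01 in ρ0 cells. Without ρ0 control replicate 1, 3 rose and 5 fell in ρ0 cells (median -0.14, with 31.0% and 31.8% of all tested genes rising and falling), and without replicate 2, 6 rose and 1 fell (median 0.20, with 30.8% and 31.6%). The balance of these 10 thus differed with the control library left out.

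Other genes of cytosolic translation, outside the symbols that define the members, were followed as a list of 26. In parental cells 14 rose and 5 fell, with a median of 0.28, beside 30.4% and 35.5% of all tested genes. In ρ0 cells 9 rose and 1 fell, with a median of 0.24, beside 19.2% and 22.1%. Without ρ0 control replicate 1 the ρ0 counts were 14 and 7 (median 0.19), and without replicate 2 they were 17 and 2 (median 0.39), beside the same shares of all tested genes as for the TOP mRNAs. After DOHH, the rises in parental cells were led by the termination factor ETF1 (1.07 ± 0.17) and the ribosome rescue factor HBS1L (1.05 ± 0.18). After DHPS, the falls were led by MKNK2, a kinase of eIF4E, which went from 35.2 and 34.2 CPM to 20.6 and 21.7 CPM (-0.71 ± 0.20, adjusted p = 0.014). In ρ0 cells MKNK2 rose from 173 and 108 CPM to 250 and 252 CPM (0.84 ± 0.19, adjusted p = 0.011), the opposite direction to parental cells (difference 1.55 ± 0.27, adjusted p = 0.0047). This rise was 1.22 and 0.55, and the difference 1.93 and 1.23, without ρ0 control replicate 1 and 2. PAIP2, an inhibitor of the poly(A)-binding protein, rose there too (0.84 ± 0.20, or 1.25 and 0.54), and the helicase DHX29 fell (-0.38 ± 0.08, or -0.39 and -0.36). Of 10 mitochondrial translation factors, 4 rose and 2 fell in parental cells, near the 30.4% and 35.5% of all tested genes, led by the release factor MTRF1L (1.17 ± 0.13). In ρ0 cells only MTRF1L passed the test (0.44 ± 0.13), where 19.2% of all tested genes rose and 22.1% fell. The median log2 fold change of the 10 in ρ0 cells was 0.03 with all libraries. Without ρ0 control replicate 1 and 2 in turn it was 0.03 and 0.18.

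RefSeq promoter windows (GRCh38.p14, 250 bases before to 50 after the start) were found for 43 of the 54 factors and searched for 3 motifs on both strands. The E-box CACGTG, the site of MYC-type factors, was in 11 of the 43 windows (25.6%), against 7.43% of all 27305 windows. The palindromic CRE TGACGTCA was in 1 window, that of EEF2 (2.33% against 1.98%), and the amino acid response element TGATGNAA was in none (3.67% of all windows). None of the 3 motifs contains another. A match is a run of letters, and binding was not measured. The 27305 windows were not limited to the 15262 tested genes, and a comparison with expressed genes alone was not made. The stretches of 4 factors are shown because they hold the E-box while the mRNAs moved in different directions, EIF4E, EIF5A2 and EIF1B rising and EIF4B falling in starved parental cells. Capitals mark the E-box, and each stretch is written 5′ to 3′ along the gene's strand.
EIF4E, chr4:98929175-98929383, minus strand: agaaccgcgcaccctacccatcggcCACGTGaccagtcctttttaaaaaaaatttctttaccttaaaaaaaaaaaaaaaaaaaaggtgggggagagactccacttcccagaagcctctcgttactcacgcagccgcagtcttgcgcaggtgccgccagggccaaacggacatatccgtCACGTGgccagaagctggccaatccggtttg
EIF5A2, chr3:170908769-170908849, minus strand: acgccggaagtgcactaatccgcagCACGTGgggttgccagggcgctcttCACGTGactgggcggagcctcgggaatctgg
EIF1B, chr3:40309628-40309683, plus strand: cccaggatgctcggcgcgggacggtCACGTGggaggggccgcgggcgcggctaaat
EIF4B, chr12:53006409-53006455, plus strand: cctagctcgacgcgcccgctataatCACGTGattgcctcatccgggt
Counted from the start of the gene, the E-boxes begin at -225 and -72 in EIF4E, at -187 and -162 in EIF5A2, at -54 in EIF1B and at -22 in EIF4B. EIF4G1 also has a pair of E-boxes, at -144 and -67. EEF2K, EIF2B3, EIF3F, EIF3K, EIF4A3 and EIF4H hold a single E-box each. Among the 11 factors with an E-box in the window, EIF4B and EEF2K fell and EIF3F did not pass the test in parental cells, and the 8 others rose. For comparison, 31 of all 54 factors and 30.4% of all tested genes rose there.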

How the data were processed

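RNA of 8 cell line libraries was sequenced, 2 in each of 4 groups. The authors deposited raw read counts for each gene symbol, and whole numbers with a different total in each library were found in it. The submitters' processing notes name Bowtie, Partek and hg19, without versions. The annotation, strand use and handling of reads with several matches are not given in the sources used here.

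Counts were tested in R 4.3.3 with edgeR 4.0.16 (filterByExpr, TMM, glmQLFit on all 8 libraries with 1 mean per group, 4 residual degrees of freedom), and p-values were adjusted by Benjamini-Hochberg over the 15262 tested genes. Standard errors were derived from the log2 fold change and its F statistic. Alternatives were other scalings and filters, DESeq2 1.42.0, limma-voom (limma 3.58.1), the replicate number as a block, the 4 compared libraries alone, fits without each library in turn and adjusted p under 0.01. A limma-voom fit weighting each group was chosen after seeing the data. Deviations of libraries with the same replicate number correlated at -0.0971 to 0.0632, so the numbers do not pair the libraries. RPKM used the median length of the protein-coding transcripts of GENCODE.

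The members and lists were chosen with earlier results of these data known. Named per comparison were the 4 largest rises and 4 largest falls, 9 fixed factors, the 3 highest levels per length and, of the other genes, the 2 largest changes each way per response. Other members, ETF1, HBS1L and ASS1 were named after their values were seen. Tested on simulated data with known changes, the script recovered 67% of 2-fold and 86% of 4-fold changes in the parental comparison and called 7 other genes of 15262. For the interaction it recovered 42% and 81% and called 13 others. The simulation changed 200 genes and gave each gene the same spread in all groups. In the real data 65.9% of all tested genes were called in the parental comparison, and the spread differed between groups. These rates therefore need not apply to the real data. Promoter windows are from RefSeq (GRCh38.p14) and no coordinates were converted.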

Additional observations from a re-analysis of the deposited data

Results flagged for a closer look

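In all, 28 of the 54 factors (51.9%, against 40.4% of all tested genes) differed between the lines in their response to starvation by the interaction test (ρ0 minus parental, log2 scale). Given here are 12 of them, namely the 4 largest differences in each direction and those among the factors fixed by name or of the highest level per length. The difference was negative for EIF5 (-1.25), EIF6 (-1.22), EIF1AD (-1.10), EIF3M (-1.05), EIF5A2 (-1.005), EIF4E (-1.003), EIF1 (-0.87) and EIF4G1 (-0.50). Of these, EIF6, EIF1AD, EIF4E and EIF1 rose in both lines. EIF3M rose in parental and fell in ρ0 cells, and EIF5A2 rose in parental cells and did not pass the test in ρ0 cells. Of these ρ0 calls, only those of EIF4E and EIF1 held with any 1 library left out. The difference was positive for EEF1A1 (0.52), EIF4EBP1 (0.63), EIF4B (1.005) and EIF4E3 (1.10). All 12 share the ρ0 control libraries, whose replicates differed for most factors, and all 12 kept their sign without either of them. Sizes moved, from -1.59 without replicate 1 to -0.81 without replicate 2 for EIF5 and from -1.31 to -0.62 for EIF5A2. With any 1 of the 8 libraries left out, only EIF6, EIF1AD, EIF3M, EIF4E and EIF4B of these 12 kept their call.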

How the results depend on the processing

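With 2 libraries per group, leaving out a library puts an arm on 1 library that is assumed to vary like the other groups. Leaving out a ρ0 control library lowers the shared estimate of the spread, and the counts of calls were then higher. With any 1 library left out, the counts ranged from 24 to 40 rising, 4 to 10 falling and 10 to 13 past 2-fold in parental cells. Of all tested genes, 23.4% to 38.9% rose and 28.1% to 42.7% fell in these fits. In ρ0 cells the counts were 6 to 30 rising, 3 to 26 falling and 2 to 5 past 2-fold (10.1% to 31.0% rising and 9.94% to 31.8% falling of all tested genes). The interaction was positive for 1 to 8 and negative for 12 to 41 (12.5% to 34.2% and 9.43% to 31.7%). The shares of all tested genes thus moved widely too, so these ranges are not specific to the factors. Between the lines they ranged from 5 to 29 higher, 8 to 29 lower and 2 to 2 past 2-fold in control cells, and from 5 to 9, 25 to 39 and 8 to 12 after starvation.

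At an adjusted p under 0.01, 6 factors rose and 5 fell in ρ0 cells (11.3% and 12.9% of all tested genes), the interaction was positive for 1 and negative for 12 (12.2% and 9.09%), and 8 were higher and 8 lower in ρ0 than parental control cells (23.3% and 24.9%). With total counts alone, 10 fell in parental cells, 8 rose in ρ0 cells and 8 were higher in ρ0 control cells (41.0%, 15.8% and 26.8% of all tested genes). With a weight per group, 10 fell in parental and 9 rose in ρ0 cells (42.7% and 11.8% of all tested genes). With the 4 compared libraries alone, 5 rose and 3 fell in ρ0 cells (10.3% and 11.8%), and 6 were higher and 8 lower in ρ0 control cells (23.2% and 25.1%). With at least 10 counts in every library, 1 factor passed 2-fold between the controls, since EEF1A2 was no longer tested. With the replicate block, 31 rose and 6 fell in parental cells (29.8% and 35.0% of all tested genes). In ρ0 cells 16 rose and 9 fell with it (18.3% and 20.4%). The interaction was then positive for 4 and negative for 23 (20.3% and 17.3%).

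No named factor that passed the test with all libraries changed sign. Factors that did not pass it crossed 0 with a library left out. Among them were, in ρ0 cells without ρ0 control replicate 1 and 2, EIF5 (-0.64 and 0.18), EIF4B (-0.23 and 0.21), EIF3D (-0.34 and 0.38), EIF1AX (-0.49 and 0.15) and EIF2S3 (-0.48 and 0.15). For the ρ0 response the ranges were -0.160 to 0.0715 for EIF4G1, -0.0532 to 0.510 for EIF5A and -0.479 to 0.151 for EIF2S3, and for the interaction -0.106 to 0.174 for EEF2, -0.368 to 0.154 for EIF5A and -0.467 to 0.121 for EIF2S3, with both ends of each set by the ρ0 control libraries. EIF2S3 in parental cells ranged from -0.0380 to 0.0295, and was at 0.0048 with DESeq2 or its size factors, 0.0033 with no filter and 0.024 with the 4 libraries alone.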
